A study of Homo sapiens with 6 samples.

Results

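The integrated stress response genes and the stanniocalcins form a set of 31 genes. They were taken by symbol from the deposited count table, which lists 30493 genes. All 31 had enough counts to enter the fit, in which 17089 genes were tested. The members comprise 3 kinases that phosphorylate the translation factor eIF2α, 8 transcription factors and cofactors, 5 feedback and stress effectors, 6 metabolic enzymes, 5 other targets and 4 secreted factors. RNA was compared between 3 libraries of A549 cells with knockdown of STAU1 and 3 libraries of A549 cells given a control plasmid. A549 is a human lung adenocarcinoma cell line, and STAU1 encodes Staufen 1, a protein that binds double-stranded RNA and acts in mRNA transport, translation and decay. Poly(A) RNA was captured on beads and sequenced from directional libraries. The knockdown libraries are titled si_STAU1 while the controls are labelled with a plasmid, and no source used here gives the sequence or delivery of the knockdown reagent. The labels do not tie the libraries to separate cultures, so every p-value below measures the spread among these libraries, which may be technical.

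Total counts lay between 30354219 and 35431441 in the knockdown libraries and between 31458569 and 32832268 in the control libraries. STAU1 itself had 16.02, 15.7 and 14.6 CPM (read counts scaled to library size, with TMM factors for composition) in knockdown libraries 1 to 3, against 120.5, 124.5 and 117.1 CPM in control libraries 1 to 3, a 7.83-fold lower level in the knockdown. All 10 markers listed for A549 cells were detected, with summed levels of 24700 to 25130 CPM in knockdown and 27450 to 27980 CPM in control libraries. They moved in both directions, 4 called higher and 5 lower, against 22.2% and 22% of all genes. KRT8 and KRT18 fell by 0.39 and 0.45 on the log2 scale, and CDH1, EPCAM and VIM rose by 0.50, 0.22 and 0.20. The 7 lung epithelial markers summed to 2.02 to 2.34 CPM in knockdown and 10.4 to 11.96 CPM in control libraries. Of the 4 that could be tested 3 were lower, SFTPA1, SFTPB and SLC34A2, against 22% of all genes. SFTPA1 and SFTPB were at 0 in every knockdown library. NAPSA was unchanged, at 1.84 CPM in knockdown and 1.85 CPM in control libraries, and NKX2-1, SFTPC and LAMP3 were too low to test. Of the 8 fibroblast and endothelial markers 5 could be tested and 3 of them were higher, COL1A1, LUM and CDH5, against 22.2% of all genes. COL3A1 and PECAM1 were not called, and DCN, PDGFRB and VWF were too low to test. The 8 markers summed to 23.9 to 24.9 CPM in knockdown and 11.7 to 12.4 CPM in control libraries. Of 6 immune markers 4 were in the table, with sums of 16.9 to 19.6 CPM in knockdown and 13.8 to 15.3 CPM in control libraries. Of the 3 that could be tested 1 was higher, CD14 (0.33 on the log2 scale), and CD68 and LYZ were not called. Mitochondrially encoded genes took 15.8% to 16.1% of the counts in knockdown and 17.3% to 17.9% in control libraries. The part of these shifts in the results below was not tested. In bulk RNA, fewer cells of a type and less RNA per cell cannot be told apart.

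The integrated stress response is a pathway in which any of several kinases phosphorylates eIF2α, which lowers general protein synthesis and at the same time favours translation of a few mRNAs, ATF4 among them. ATF4 is a bZIP transcription factor that pairs with C/EBP proteins and switches on genes for amino acid supply, redox balance and, under lasting stress, cell death. Because ATF4 is controlled mainly at the level of translation, the amount of its mRNA is not a measure of its protein. STC1 and STC2 are secreted glycoproteins, and STC2 is a known target of the stress response in human cells.

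The members moved in both directions. They were chosen with earlier results of these data known and were not matched for level to all genes. The shares below therefore describe this set, and an excess over all genes was not tested. Of the 31 genes 11 rose and 10 fell at an adjusted p under 0.05 (edgeR, quasi-likelihood F-test, adjusted over all genes by the method of Benjamini and Hochberg), which makes 67.7% called, against 44.2% of all genes tested. The 11 higher members are 35.5% of the set, against 22.2% called higher over all genes, and the 10 lower members are 32.3%, against 22% called lower. The groups did not overlap for 20 members (64.5%), against 51.4% of all genes. A called change of at least 1.5-fold was found for 4 members, ATF3, CHAC1, PYCR1 and STC2 (12.9%), against 6.34% of all genes (2 members with log2(FPKM + 1)), and TRIB3 and ASNS lay just short of it. The added 1 shrinks changes of genes with a mean FPKM below 1, ATF3 and CHAC1 among them. The median log2 fold change of the members was 0.00061, against -0.00036 over all genes, and the median size was 0.29, against 0.18. Of all called genes 50.3% were higher, but 69.5% with scaling by total counts and 78.5% and 78.1% on 2 log scales of the deposited FPKM, a level per gene length, and total-count scaling moved the median of all genes by 0.0764 on the log2 scale, so the direction of changes of that size depends on the scaling. With total-count scaling 14 members were higher and 9 lower, and on the FPKM scales 11 were higher and 6 or 7 lower.

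**Figure D1:**
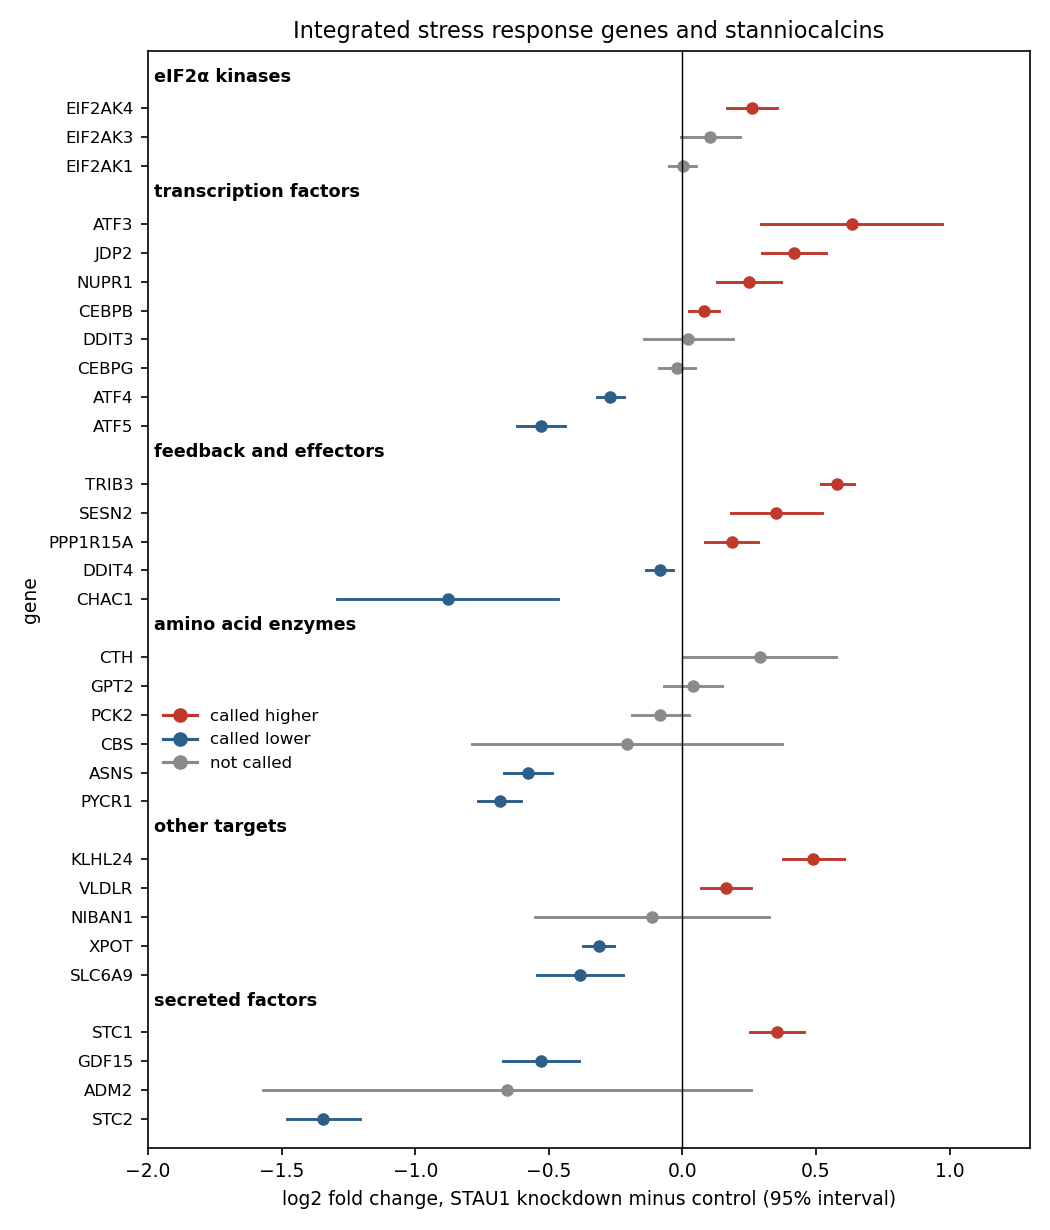
Log2 fold change of the 31 genes, STAU1 knockdown minus control, fitted on 3 libraries a group; points are the fitted values, lines their 95% intervals, and colours the calls at an adjusted p under 0.05. STC2 lies farthest from 0 at -1.34, CHAC1 has the widest interval among the called genes, and calls in both directions occur in 4 of the 6 role groups.

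ATF4 binds DNA as a heterodimer with C/EBP proteins at the C/EBP-ATF response element, whose core was searched as TGATGNAA on both strands. The window ran from 250 bases before to 50 bases after a start site, in RefSeq sequence of GRCh38.p14, and 26 of the 31 members had such windows, 40 in all. The core lay in a window of 5 members, ASNS, ATF3, CEBPG, CHAC1 and JDP2 (19.2% of the 26), against 4.46% of all 27305 genes with a window. Counted by window, it lay in 12.5% of those of members and 3.62% of all 35116. The members were listed as genes of this response, so their higher share is not independent evidence. Members without a window were not searched. A match describes these letters and does not show binding in A549 cells. The 5 matches are printed 5′ to 3′ on the strand of the gene with 30 bases on each side, so that the element can be set beside the direction of each gene, and capitals mark the core.
ASNS (chr7:97872439-97872506, minus strand): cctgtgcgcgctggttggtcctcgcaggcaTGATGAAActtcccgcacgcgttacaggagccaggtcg
CHAC1 (chr15:40953232-40953299, plus strand): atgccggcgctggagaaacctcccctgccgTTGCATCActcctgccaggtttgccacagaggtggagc
CEBPG (chr19:33374041-33374108, plus strand): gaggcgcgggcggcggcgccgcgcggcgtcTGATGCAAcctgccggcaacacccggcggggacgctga
JDP2 (chr14:75427976-75428043, plus strand): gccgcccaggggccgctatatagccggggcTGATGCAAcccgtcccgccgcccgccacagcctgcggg
ATF3 (chr1:212565186-212565253, plus strand): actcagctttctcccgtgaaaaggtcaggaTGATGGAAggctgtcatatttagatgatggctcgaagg

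The cores began 68 bases before the start site in ASNS, 209 in CHAC1, where it reads on the opposite strand, 42 in CEBPG, 16 in JDP2 and 191 in ATF3. The 5 genes did not share a direction. ASNS and CHAC1 fell by 0.58 and 0.88 on the log2 scale, JDP2 and ATF3 rose by 0.42 and 0.63, and CEBPG had -0.02 and was not called. ASNS, ATF3 and CEBPG each have 2 listed windows and JDP2 has 3, of which only 1 held the core, and which start site A549 cells use was not tested.

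Of the 3 eIF2α kinases among the members 1 was called (33.3%, against 44.2% of all genes). The eIF2α kinase gene EIF2AK2 is not a member and was counted in the eIF2 list below. Named after its value was seen, it fell by 0.11 on the log2 scale (SE 0.03; edgeR adjusted p = 0.0030). That call ended with total-count scaling and on both FPKM scales. EIF2AK4, which encodes GCN2, the sensor of uncharged tRNA, rose modestly. It had 34.4, 36.1 and 35.98 CPM in knockdown libraries, against 28.0, 31.5 and 29.4 CPM in control libraries. Every knockdown library was above every control library, with a log2 fold change of 0.26 (SE 0.05; edgeR adjusted p = 6.7e-06). EIF2AK3, which encodes the endoplasmic reticulum kinase PERK, averaged 22.4 ± 1.57 CPM in knockdown and 20.9 ± 0.187 CPM in control libraries (SD, n = 3 each). Its log2 fold change of 0.10 was not called (95% interval -0.0065 to 0.21). EIF2AK1 encodes HRI, the heme-regulated kinase that also answers mitochondrial stress, and it averaged 205 ± 8.28 CPM in knockdown and 205 ± 4.85 CPM in control libraries. Its fold change had an interval of -0.05 to 0.05 on the log2 scale, the narrowest around 0 of the 3 kinases. EIF2AK1 and EIF2AK3 were called higher with total-count scaling, with log2 fold changes of 0.08 and 0.18, and EIF2AK3 also without knockdown replicate 1 (0.16, edgeR adjusted p = 0.0283).

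ATF4 and ATF5 are among the transcription factors whose mRNAs carry upstream open reading frames and are translated under stress, and both fell. ATF4 had 222, 229 and 239.8 CPM in knockdown libraries, against 279.7, 283 and 270.0 CPM in control libraries. The groups did not overlap, and the log2 fold change was -0.27 (SE 0.02; edgeR adjusted p = 4.2e-12), a call that ended with log2(FPKM + 1) (-0.16, limma adjusted p = 0.0634). ATF5 had 26.5, 27.3 and 26.8 CPM in knockdown libraries, against 37.4, 40.1 and 39.0 CPM in control libraries. The 3 knockdown values lay within 1 CPM of each other and far below the controls, with a log2 fold change of -0.53 (SE 0.04; edgeR adjusted p = 4.3e-14).

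ATF3, a repressor and activator induced by many stresses, rose at a low level. It had 3.23, 2.98 and 2.55 CPM in knockdown libraries, from 101, 95 and 92 counts, against 1.68, 2.32 and 1.63 CPM in control libraries, from 52, 71 and 52 counts. The lowest knockdown library was above the highest control library by a small margin, and the log2 fold change was 0.63 (SE 0.17; edgeR adjusted p = 0.0017). With log2(FPKM + 1) the fold change was 0.24. The added 1 shrinks it there, as the mean FPKM of ATF3 was 0.63 in knockdown and 0.38 in control libraries. JDP2, a bZIP repressor related to ATF3, rose to 20.7, 23.5 and 22.8 CPM in knockdown libraries, against 15.6, 17.2 and 17.4 CPM in control libraries (log2 fold change 0.42, SE 0.06). NUPR1, a small stress-induced chromatin cofactor, averaged 40.2 ± 3.03 CPM in knockdown and 33.9 ± 2.64 CPM in control libraries (log2 fold change 0.25, SE 0.06), with 1 knockdown library at 36.8 CPM, just below the highest control at 36.9 CPM.

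The C/EBP members differed by small amounts. CEBPB averaged 114.5 ± 3.11 CPM in knockdown and 108 ± 2.36 CPM in control libraries, a rise of 0.08 on the log2 scale (SE 0.03; edgeR adjusted p = 0.0143). That call ended with DESeq2 (adjusted p = 0.0621) and without knockdown replicate 1, knockdown replicate 3 or control replicate 3 (edgeR adjusted p = 0.0757, 0.0597 and 0.0939). CEBPG, which pairs with ATF4, had a log2 fold change of -0.02 (95% interval -0.09 to 0.05) and was not called. DDIT3, which encodes the pro-apoptotic factor CHOP, averaged 9.65 ± 0.692 CPM in knockdown and 9.49 ± 0.938 CPM in control libraries, with an interval of -0.14 to 0.19 on the log2 scale. Exons of DDIT3 share 355 bases (27.2% of its exon length) with MARS1 on the opposite strand, a gene with 22107 counts over the 6 libraries against 1841 for DDIT3. MARS1 fell by 0.40 on the log2 scale. MBD6, also on the opposite strand, shares 58 bases (4.4%), had 5076 counts and rose by 0.20. Since the strand setting of the counting is not stated, DDIT3 may not be separated from these genes.

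**Figure D2:**
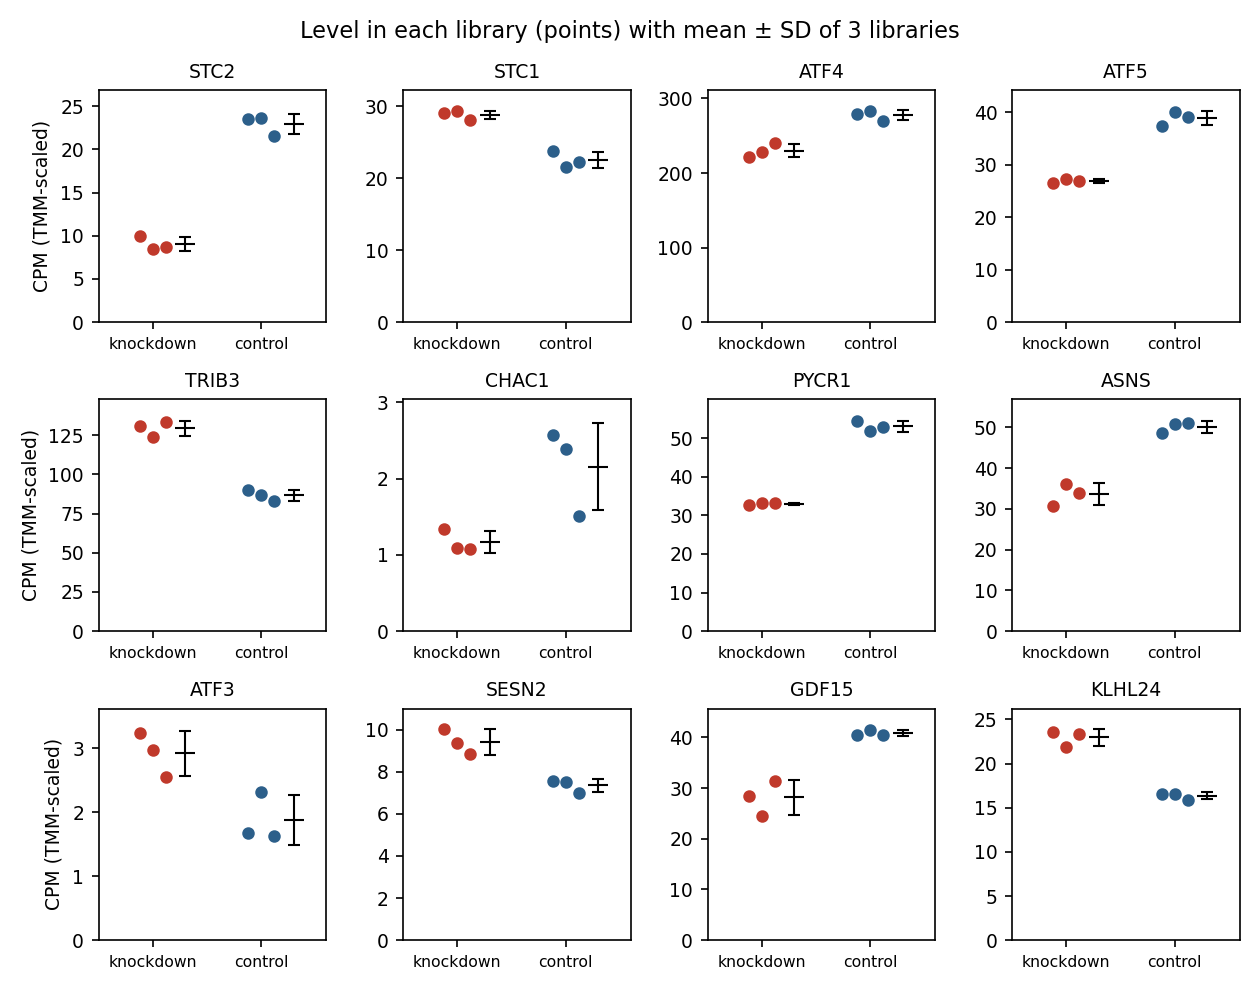
CPM with TMM scaling of 12 genes in each of 3 STAU1 knockdown (red) and 3 control (blue) libraries; black marks are mean ± SD of 3 libraries and each axis starts at 0. STC2, ATF5, PYCR1 and ASNS sit far below their controls in every knockdown library, TRIB3 and KLHL24 far above, and the gap is narrowest for CHAC1 and ATF3.

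The negative feedback genes TRIB3 and PPP1R15A and the mTORC1 inhibitor gene SESN2 rose. TRIB3 encodes a pseudokinase that is induced by ATF4 and CHOP and restrains ATF4. It had 131, 124 and 134 CPM in knockdown libraries, against 89.9, 87.1 and 83.1 CPM in control libraries. All knockdown libraries were well above all controls, with a log2 fold change of 0.58 (SE 0.03; edgeR adjusted p = 1.1e-20). PPP1R15A encodes GADD34, the stress-induced subunit that brings protein phosphatase 1 to eIF2α and so reverses its phosphorylation. It had 27.8, 26.7 and 29.4 CPM in knockdown libraries, against 24.9, 24.6 and 24.5 CPM in control libraries (log2 fold change 0.19, SE 0.05; edgeR adjusted p = 0.0017). SESN2 encodes sestrin 2, which restrains the growth kinase mTORC1, and had 10.04, 9.37 and 8.83 CPM in knockdown libraries, against 7.57, 7.52 and 7.001 CPM in control libraries. Its groups did not overlap either (log2 fold change 0.35, SE 0.08; edgeR adjusted p = 5.6e-04).

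CHAC1, which encodes an enzyme that degrades glutathione, went the other way. It had 42, 35 and 39 counts in knockdown libraries (1.343, 1.096 and 1.079 CPM), against 80, 73 and 48 counts in control libraries (2.58, 2.39 and 1.51 CPM). Control replicate 3 lay close to the knockdown values, and the log2 fold change was -0.88 (SE 0.21; edgeR adjusted p = 3.9e-04). The call ended on both FPKM scales (-0.30 and -0.64, limma adjusted p = 0.0866 and 0.0626). The added 1 shrinks the first value, as the mean FPKM of CHAC1 was 0.50 in knockdown and 0.86 in control libraries. DDIT4, which encodes the mTORC1 inhibitor REDD1, averaged 246 ± 6.58 CPM in knockdown and 261 ± 10.1 CPM in control libraries. Its groups overlapped, and although the log2 fold change of -0.09 (SE 0.02) was called, its direction turned on both FPKM scales (0.02 on each) and the call ended with total-count scaling (-0.0087) and without control replicate 1 (-0.06).

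Among the enzymes 2 of the 6 fell (33.3%, against 22% of all genes). PYCR1, the mitochondrial enzyme of the last step of proline synthesis, had 32.7, 33.2 and 33.1 CPM in knockdown libraries, against 54.4, 51.7 and 52.9 CPM in control libraries. This is a drop of 37.8% with no overlap (log2 fold change -0.68, SE 0.04; edgeR adjusted p = 1.7e-19). ASNS, which makes asparagine and has the core TGATGAAA in the promoter printed above, had 30.7, 36.1 and 34.0 CPM in knockdown libraries, against 48.5, 50.9 and 51.0 CPM in control libraries. The knockdown values were more spread than the controls but all below them (log2 fold change -0.58, SE 0.04; edgeR adjusted p = 9.9e-15).

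The other 4 enzymes were not called. PCK2, the mitochondrial phosphoenolpyruvate carboxykinase, had a log2 fold change of -0.08 (95% interval -0.19 to 0.02). GPT2, the mitochondrial alanine transaminase, had 0.04 (-0.07 to 0.15). For the enzymes that make cysteine from homocysteine by way of cystathionine, CTH had 0.29 (0.0023 to 0.57, before adjustment for the number of genes) and CBS -0.21 (-0.79 to 0.37). CTH averaged 3.63 ± 0.50 CPM in knockdown and 2.98 ± 0.523 CPM in control libraries, and it was called higher with total-count scaling and without knockdown replicate 2 or control replicate 1 (edgeR adjusted p = 0.0314, 0.0377 and 0.0242). CBS was present at 0.676 CPM in knockdown and 0.779 CPM in control libraries, where its interval spans more than a 1.5-fold fall.

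The remaining intracellular and membrane targets split evenly. KLHL24, a substrate adaptor of a ubiquitin ligase, had 23.6, 21.9 and 23.4 CPM in knockdown libraries, against 16.6, 16.6 and 15.9 CPM in control libraries (log2 fold change 0.49, SE 0.06; edgeR adjusted p = 3.9e-10). VLDLR, a lipoprotein receptor, averaged 30.7 ± 0.841 CPM in knockdown and 27.4 ± 0.764 CPM in control libraries, without overlap (log2 fold change 0.16, SE 0.05). XPOT, the exporter of tRNA from the nucleus, fell to 98.6, 102 and 97.0 CPM in knockdown libraries, against 119.9, 128 and 123 CPM in control libraries (log2 fold change -0.31, SE 0.03; edgeR adjusted p = 5.7e-13). SLC6A9, the glycine transporter GLYT1, averaged 8.81 ± 0.628 CPM in knockdown and 11.5 ± 0.927 CPM in control libraries, a fall of 23.3% whose call ended on both FPKM scales (-0.17 and -0.25). NIBAN1, a stress-induced regulator of translation, was at 1.35 CPM in knockdown and 1.45 CPM in control libraries and was not called (95% interval -0.55 to 0.32).

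The stanniocalcins went in opposite directions. STC2 (chromosome 5, 173314713 to 173329503, minus strand, GRCh38) had 312, 270 and 313 counts in knockdown libraries, against 730, 722 and 687 counts in control libraries. On the CPM scale this is 9.98, 8.46 and 8.66 in knockdown and 23.5, 23.6 and 21.6 in control libraries. Every knockdown library lay far below every control library, and the log2 fold change was -1.34 (SE 0.07; edgeR adjusted p = 7.2e-22). Only 0.573% of all tested genes had a larger change in either direction. STC1 (chromosome 8, 23841915 to 23854807, minus strand, GRCh38) had 29.01, 29.3 and 28.1 CPM in knockdown libraries, against 23.8, 21.6 and 22.2 CPM in control libraries. It rose by 0.35 on the log2 scale (SE 0.05; edgeR adjusted p = 6.4e-08), with no overlap. In deposited FPKM the paralogs were near each other in controls and apart in the knockdown: the ratio of STC1 FPKM to STC2 FPKM was 3.56, 4.25 and 3.98 in knockdown libraries, against 1.23, 1.12 and 1.26 in control libraries. The length behind the FPKM was 0.983 times the exon length for STC2 and 1.19 times for STC1. That places STC2 higher beside STC1 in both groups, so their nearness in controls partly rests on it. Both calls and both directions were kept under all 16 alternatives, with a log2 fold change between -1.42 and -0.87 for STC2 and between 0.32 and 0.46 for STC1.

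The other secreted members were GDF15 and ADM2. GDF15, a stress cytokine of the TGF-β family that acts on appetite, had 28.5, 24.6 and 31.4 CPM in knockdown libraries, against 40.5, 41.5 and 40.5 CPM in control libraries. The knockdown libraries were scattered and all below the tightly grouped controls (log2 fold change -0.53, SE 0.07; edgeR adjusted p = 1.2e-05). ADM2, a peptide hormone of the calcitonin family, had 12, 10 and 2 counts in knockdown libraries, against 11, 12 and 13 counts in control libraries. Knockdown replicate 3 stands apart there, and the difference was not detectable at this depth (95% interval -1.57 to 0.26 on the log2 scale).

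Levels per gene length ranged widely across the set. The deposited FPKM (fragments per kilobase of gene length, scaled to depth) in control libraries averaged 101 for DDIT4, the highest member, and 0.0733 for ADM2, the lowest, a 1370-fold span. ATF4 (86.7 FPKM) stood at the 98.1 percentile of all tested genes, CEBPB (48.0 FPKM) at the 96.5 percentile and DDIT3 (5.92 FPKM) at the 72.6 percentile. In the order of control FPKM, 11 of 30 neighbouring pairs overlapped between their 3 libraries, among them XPOT with CEBPG, DDIT3 with NUPR1 and PCK2 with STC1. In the order of control FPKM the kinases ran from EIF2AK1 at 30.4 ± 0.623 through EIF2AK4 at 2.02 ± 0.115 to EIF2AK3 at 0.827 ± 0.0116 (SD, n = 3 each), with no overlap. The same order was seen in the knockdown, at 32.9, 2.61 and 0.957 FPKM. The length behind the deposited FPKM, worked out from counts and totals, was about 1.19 times the summed exon length of GENCODE 29 for most members. It was 4.53 times that length for EIF2AK3 and 2.11 times for VLDLR, so the FPKM of these 2 genes is low for their exon length, and the place of EIF2AK3 below EIF2AK4 rests on it. For STC2 it was 0.983 times, the lowest, so the FPKM of STC2 is high for its exon length beside most members.

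**Figure D3:**
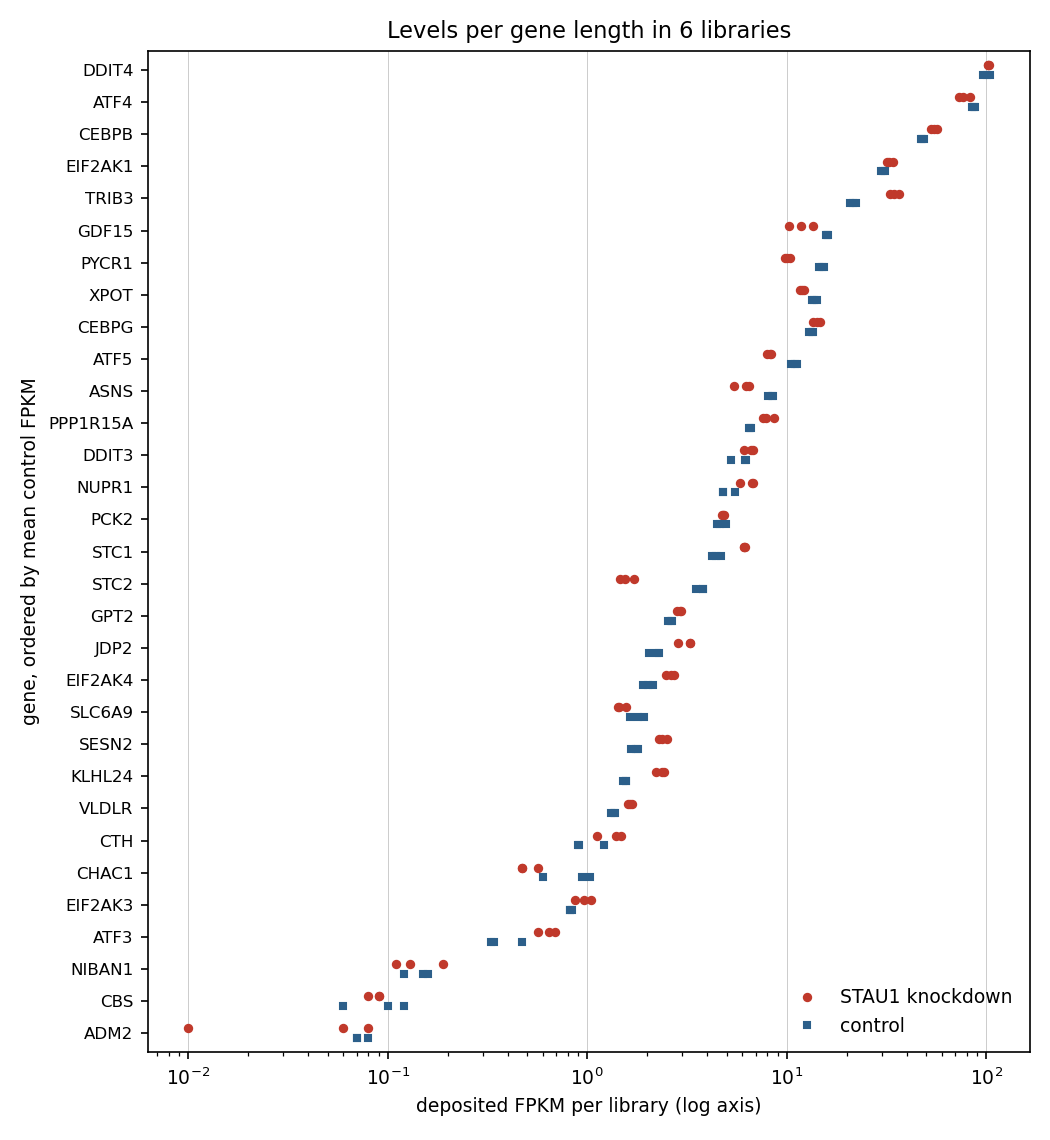
Deposited FPKM of the 31 genes on a log axis, with 3 STAU1 knockdown libraries as red circles above 3 control libraries as blue squares, ordered by the control mean. Most members keep their place between groups, STC2 and TRIB3 are displaced to the left and right, and 1 knockdown library of ADM2 lies apart at 0.01.

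Other genes of the pathway, from lists that do not include the members, were mostly called by small amounts, and their counts stand against 22.2% of all genes called higher and 22% called lower. Of 20 genes listed for eIF2, its exchange factor eIF2B and their regulators 12 fell and 4 rose (median log2 fold change -0.12, against -0.00036 over all genes). With total-count scaling 8 fell and 7 rose, and on both FPKM scales 3 fell and 7 rose (medians -0.0064 and -0.0071), so that list has no direction independent of scaling. The list includes EIF2A and EIF2D, which are not eIF2 subunits despite their names. They were not called in the main fit but were called higher under these 3 alternatives. The largest falls were in EIF2B3, an eIF2B subunit (-0.30, SE 0.06), EIF2S1, which encodes eIF2α itself (-0.25, SE 0.03), and EIF2S2, the eIF2β gene (-0.24, SE 0.02). DNAJC3, an inhibitor of PERK, rose by 0.30 (SE 0.04), NCK1, an adaptor reported to act on eIF2α dephosphorylation, by 0.21 (SE 0.05), and the phosphatase catalytic gene PPP1CC by 0.16 (SE 0.02). PPP1R15B, the constitutive partner of PPP1R15A, averaged 58.9 ± 1.02 CPM in knockdown and 68.9 ± 2.28 CPM in control libraries, a fall of 0.23 (SE 0.03) where PPP1R15A rose, though its call ended on both FPKM scales.

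Of 13 cytosolic tRNA synthetase genes reported as ATF4 targets 12 fell, 0 rose and SARS1 was not called (median -0.13), but 6 fell with total-count scaling and 5 on both FPKM scales, where SARS1 was called higher, as with total-count scaling. IARS1, the isoleucine enzyme, fell most, with 98.1 ± 3.37 CPM in knockdown and 191 ± 0.299 CPM in control libraries (-0.96, SE 0.03), and was followed by MARS1 (-0.40, SE 0.03) and YARS1 (-0.40, SE 0.03). Among 16 tested of 17 listed genes of amino acid supply 7 fell and 5 rose, with a median of -0.08 that turned to 0.02 and 0.03 on the FPKM scales. The mitochondrial folate enzyme MTHFD2 fell by 0.66 (SE 0.03), and the serine synthesis genes PSAT1 and PHGDH fell by 0.43 (SE 0.03) and 0.37 (SE 0.05), the call of PHGDH ending on both FPKM scales. Both chains of the large neutral amino acid transporter rose, SLC7A5 by 0.48 (SE 0.02) and SLC3A2 by 0.28 (SE 0.02), as did the folate enzyme MTHFD1L by 0.20 (SE 0.04).

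In the parallel arms of the unfolded protein response more genes rose than fell. Of 19 genes of the IRE1 and ATF6 arms 11 rose and 2 fell (median 0.10), with 6 higher and 2 lower in DESeq2. XBP1, the factor spliced by IRE1, averaged 204 ± 0.67 CPM in knockdown and 165 ± 2.60 CPM in control libraries (0.30, SE 0.02), the calcium-binding chaperone CALR rose by 0.25 (SE 0.02) and CRELD2 by 0.24 (SE 0.05). EDEM1, a lectin of ER-associated degradation, fell by 0.31 (SE 0.04), and SEC61B, of the translocon, by 0.13 (SE 0.03), a call lost with total-count scaling and on both FPKM scales. Of 8 tested of 9 genes listed for mitochondrial stress 2 rose and 3 fell (median 0.02), with 3 higher and 1 lower on the FPKM scales. None of those called in the main fit is OMA1 or DELE1, the genes of the relay itself. LONP1 and HSPD1 rose by 0.12 (SE 0.03) and 0.11 (SE 0.02), HSPE1 fell by 0.33 (SE 0.02), and CLPP and HSPA9 fell by 0.21 (SE 0.05) and 0.14 (SE 0.02), both calls ending on the FPKM scales. The relay proteins upstream of HRI, OMA1 and DELE1, had log2 fold changes of 0.07 each and were not called, but DELE1 was called higher with total-count scaling (0.15, edgeR adjusted p = 0.00085) and on both FPKM scales (0.16 and 0.18, limma adjusted p = 0.030 and 0.0232).

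**Figure D4:**
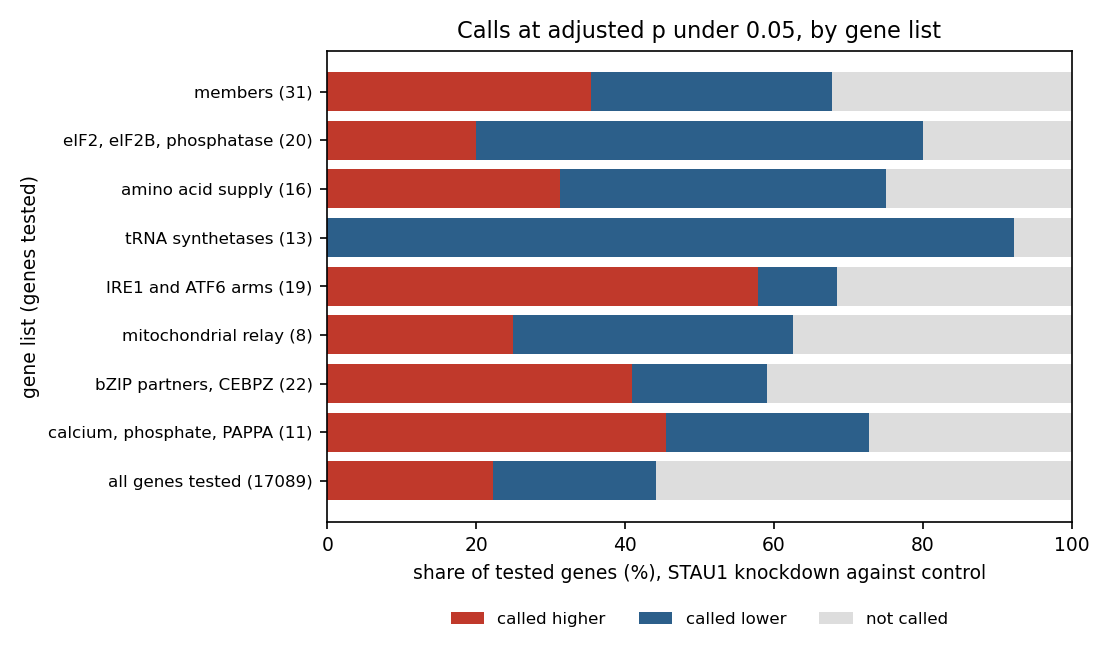
Share of tested genes called higher (red), called lower (blue) and not called (grey) in STAU1 knockdown against control libraries, for the 31 members, 7 other gene lists and all 17089 tested genes, with the number tested in brackets. The bar of bZIP partners includes CEBPZ, which is not a bZIP gene, and that of eIF2 includes EIF2A and EIF2D, which are not eIF2 subunits. In the bar of the mitochondrial relay the relay genes OMA1 and DELE1 were not called. The bar of tRNA synthetases is blue except for 1 gene, and over all genes 22.2% were called higher and 22% lower.

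A list of 22 genes was drawn up as bZIP partners of the members, but 1 of them, CEBPZ, has no bZIP domain despite its name. Of the other 21 genes 9 rose (42.9%) and 3 fell (14.3%; median 0.05). CEBPD, a C/EBP factor of acute responses, averaged 45.1 ± 2.27 CPM in knockdown and 26.0 ± 0.877 CPM in control libraries (0.79, SE 0.05). JUN rose by 0.56 (SE 0.06) and FOSL2 by 0.54 (SE 0.03). CEBPA fell by 0.42 (SE 0.06), CREB1 by 0.17 (SE 0.05) and FOSL1 by 0.31 (SE 0.10), the call of FOSL1 ending with DESeq2 (adjusted p = 0.0607) and on both FPKM scales. The call of CREB1, named after its value was seen, ended with total-count scaling and on both FPKM scales. CEBPZ, a CCAAT-binding protein, fell by 0.23 (SE 0.03).

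STC2 protein is known to bind and inhibit PAPP-A, a protease that cleaves IGFBP4 and frees insulin-like growth factors, and stanniocalcins have been tied to calcium and phosphate handling. Of 11 genes of these systems 5 rose (45.5%, against 22.2% of all genes) and 3 fell (27.3%, against 22%; median 0.03), and on both FPKM scales 1 fell. PAPPA rose to 77.7 ± 0.805 CPM in knockdown, against 54.5 ± 2.60 CPM in control libraries (0.51, SE 0.04). IGFBP4 averaged 1189 ± 29.4 CPM in knockdown and 842 ± 5.75 CPM in control libraries (0.50, SE 0.02), and the receptor gene IGF1R rose by 0.32 (SE 0.03). The calcium pump gene ATP2A2 fell by 0.15 (SE 0.02) and the phosphate transporter gene SLC20A1 by 0.12 (SE 0.03), both calls ending on the FPKM scales and that of SLC20A1 also with total-count scaling. The phosphate transporter gene SLC34A2, also counted among the lung epithelial markers above, fell to 0.0104 CPM in knockdown, against 1.02 CPM in control libraries.

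Shared exon sequence limits some of these values. In GENCODE 29 the exons of 11 members overlap another gene, and for 5 of them the partner held over 5% as many counts as the member. Besides DDIT3, these were ATF5 with NUP62 on the opposite strand (21.2% of the exon length of ATF5, and a log2 fold change of -0.23 for NUP62), EIF2AK1 with AIMP2 (9.6%, -0.33), SLC6A9 with CCDC24 (7.8%, -0.09, not called) and ASNS with a processed transcript on its own strand (44.6%, 0.04, not called). Processed or other pseudogenes named after ATF4, ASNS and XPOT held at most 33 counts over the 6 libraries, against 8024 or more for the parent genes. STC1 and STC2 had no such partner.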

How the data were processed

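The members and all gene lists were chosen with earlier results of these data known. Each deposited column was assigned to a library by its name, which equals the sample title. The authors deposited raw read counts per gene as whole numbers, and FPKM rounded to 2 decimals. HISAT2, DESeq2 and GRCh38 are named in the submitters' processing notes without version or order. The sources used here do not give the counting tool, annotation or strand setting.

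Counts were kept with filterByExpr (minimum count 10), scaled with TMM factors and tested across all 17089 genes with edgeR's quasi-likelihood test with robust dispersion (edgeR 4.0.16, limma 3.58.1, R 4.3.3) and Benjamini-Hochberg adjustment, called at an adjusted p under 0.05. CPM are TMM-scaled, SDs are over 3 libraries, fold changes are knockdown minus control, and each SE was obtained by dividing the absolute log2 fold change by the root of its F statistic. No replicate pair differed as little as sampling noise (chi-square per degree of freedom 1.78 to 2.88). The common coefficient of variation was 2.61%, and whether the replicates are technical was not tested. All members were named, with the 3 largest called rises and falls of each other list. The fit was tested on simulated data. Alternatives were RLE, upper-quartile and total-count scaling, 2 filters, DESeq2 1.42.0, limma-voom, limma on log2(FPKM + 1) and log2(FPKM + 0.1), the replicate block and each library left out. Coordinates and overlaps come from GENCODE 29, matched by gene ID without version.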

Additional observations from a re-analysis of the deposited data

How the results depend on the processing

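Of the 31 members 23 kept their direction, where called, and their side of the threshold under every alternative that could be run on them. DDIT4 turned to 0.0246 with log2(FPKM + 1) and 0.0248 with log2(FPKM + 0.1). The members called lower numbered 6 and those changed at least 1.5-fold 2 with log2(FPKM + 1). Of all genes 3759 were called lower, but 1104 and 1198 on the FPKM scales with pseudocounts 1 and 0.1, and 2407 when libraries were scaled by total counts. Leaving out each library in turn gave 10 to 12 members higher, 9 to 10 lower, 3 to 6 changed at least 1.5-fold, and 6779 to 7106 genes called in all, with 3386 to 3570 higher and 3370 to 3631 lower. The 1.5-fold count was 6 without knockdown replicate 2 or 3. The deviations of same-numbered libraries from their group means correlated at 0.068, 0.037 and 0.146, not all over 0.1, so the numbers were not taken as pairs. Each knockdown library correlated best with its own number, control replicate 2 did not (0.046 with knockdown replicate 1), and a shared batch or day was not tested. The fit with the replicate block called 11 members higher and 10 lower and 7665 genes in all. ADM2 and CBS fell below the filter of 1 CPM in 3 libraries, and DESeq2 gave ADM2 no adjusted p. At 2 to 101 counts a library, ADM2, CBS, NIBAN1, CHAC1 and ATF3 have the least precise values, and depth limits them most.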
